A study of Saccharomyces cerevisiae with 8 samples.

Results

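The genes described here are 8 genes of the yeast filamentous growth pathway: the sensor gene MSB2, the kinase gene KSS1, the transcription factor genes TEC1 and STE12, the inhibitor genes DIG1 and DIG2, and the target genes FLO11 and PGU1. They were chosen by symbol in the platform's gene table, where each of the 8 had 1 probe set, out of 5449 Saccharomyces cerevisiae genes that the table names. All 8 were above the array background on all 8 arrays, and all were tested.

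The study compared the CDC34tm strain with a wild type (WT). CDC34tm cells (RRC85) carried the CDC34tm allele of the ubiquitin-conjugating enzyme gene CDC34, marked with a nourseothricin resistance gene. WT cells (DBY2059) were described as isogenic and as carrying a leu2 allele. The source name of each sample, in either strain, also lists as variables that leu2 allele and PST1 with its 3′ region partly disrupted, and does not say which strain has them. Both strains are given as MATα. Stationary cultures were diluted into synthetic medium (2% dextrose, 0.25% glutamine as nitrogen source, 25.2 mg/L leucine) and went through 3 to 4 doublings at 30 °C. Each strain had 4 separate cultures with 1 Affymetrix Yeast 2.0 array each, and each is a single strain, so the CDC34tm allele and anything else that differs between the strains cannot be told apart.

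The filamentous growth pathway is a mitogen-activated protein kinase cascade that lets yeast cells elongate, stay attached and grow into a surface when nutrients are short. Msb2, a mucin in the plasma membrane, passes a signal through Cdc42, Ste20, Ste11 and Ste7 to the kinase Kss1, which relieves the inhibition of Ste12 by Dig1 and Dig2. Ste12 acts together with Tec1 on filamentation genes and without Tec1 on mating genes. Tec1 protein is phosphorylated by the mating kinase Fus3 during the pheromone response and is then ubiquitinated by SCF-Cdc4, the ligase with which Cdc34 works. Arrays measure mRNA, so the amount of Tec1 protein was not measured here.

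Values are MAS5 signals, the summary intensity of a probe set on a linear scale, which the authors had scaled to a common level on each array. Background was the 95th percentile of the Schizosaccharomyces pombe probe sets on the same array, between 12.3 and 14.6. Differences are log2 fold changes of log2(signal + 16), CDC34tm minus WT, from limma fitted over 5437 probe sets, with Benjamini-Hochberg adjusted p-values over all of them and a threshold of 0.05. The mRNA of CDC34 itself had a log2 fold change of 0.01 (95% interval -0.16 to 0.19, limma adjusted p = 0.899). The 4 MATα marker genes had signals of 5566 and higher on all arrays, with a summed level of 34066 to 37176 in CDC34tm and 35824 to 45311 in WT. Of these 4, 1 was called lower in CDC34tm, beside 19.7% of all tested probe sets. It was MF(ALPHA)2 (log2 fold change -0.32, limma adjusted p = 0.0232), which lost its call without CDC34tm replicate 1 or without CDC34tm replicate 2. The 5 MATa marker genes stayed at or under 302, with a summed level of 669 to 787 in CDC34tm and 554 to 719.6 in WT. One WT culture stood apart in pheromone-induced genes: on WT replicate 3 FIG1, a membrane protein gene induced by pheromone, read 509, against 28.2, 44.9 and 32.6 on WT replicates 1, 2 and 4. WT replicates 1 and 4 stood apart in HSP42, a small heat shock protein gene that was picked after its values were seen. It read 144 to 188 in CDC34tm, 5769.8 and 6744 on WT replicates 1 and 4, and 978 and 652 on WT replicates 2 and 3. Where a call described here rests on these cultures, the value without them is given.

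Of the 8 pathway genes, DIG1 alone passed the test with all arrays. It fell 2.04-fold in CDC34tm, while DIG2, for the other inhibitor, did not pass. None of the 8 rose. Over all tested probe sets, 38.6% were called in either direction and 19.7% were called lower in CDC34tm, and 1 of 8 is under both shares. For DIG1 and FLO11, 2 of the 8 genes, no CDC34tm signal reached into the WT range. Separate ranges of this kind were seen for 39.5% of all tested probe sets. The median log2 fold change of the 8 genes was -0.01, beside 0.00 over all tested probe sets.

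**Figure D1:**
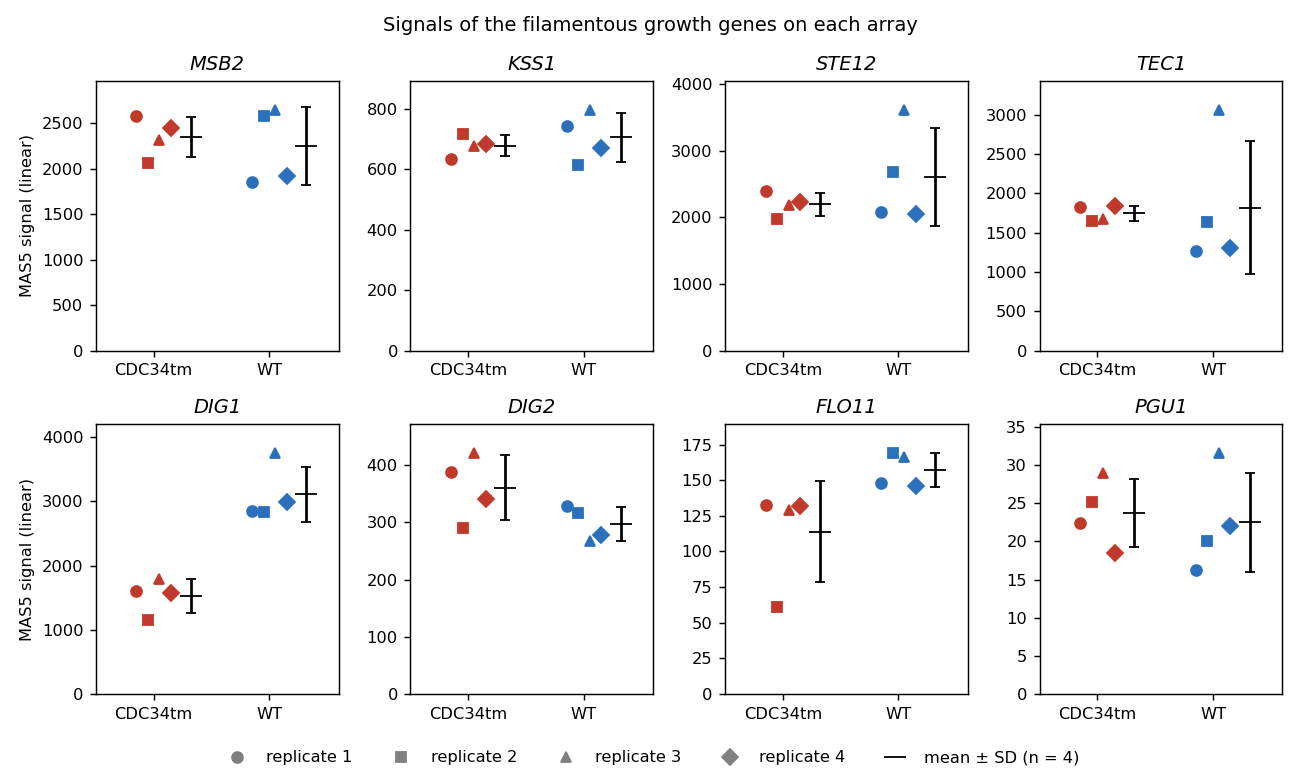
MAS5 signal (linear axis from 0) of each of the 8 genes on each array, with 1 marker shape per replicate number and the mean ± SD of the 4 arrays beside the points. DIG1 lies at 1156 to 1784 in CDC34tm and 2837 to 3752 in WT, and WT replicate 3 is the highest WT array for TEC1, STE12, KSS1, DIG1, MSB2 and PGU1.

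DIG1 (YPL049C) encodes an inhibitor that binds Ste12, and it is the inhibitor found together with Tec1 and Ste12 in the filamentation complex. Its signal was 1603, 1156, 1784 and 1569 on CDC34tm replicates 1 to 4, against 2856, 2837, 3752 and 2991 on WT replicates 1 to 4. Every CDC34tm culture lay below every WT culture. CDC34tm averaged 1528 ± 265 and WT 3109 ± 434 (SD, n = 4 each), a log2 fold change of -1.03 ± 0.14 (SE, limma adjusted p = 0.000457). Among all 5437 tested probe sets, 118, DIG1 included, had a log2 fold change at least this low. The call did not rest on the unusual WT cultures: the log2 fold change was -0.93 with WT replicate 3 left out, -1.10 with WT replicates 1 and 4 left out, and -0.95 with WT replicates 2 and 3 left out (limma adjusted p = 0.000923, 0.00082 and 0.00044). Leaving out any single array gave -1.10 to -0.90, and DIG1 was past the threshold each time. A signal is an average over a whole culture, so a change in some cells and a smaller change in all cells cannot be told apart.

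DIG2 (YDR480W) encodes the second inhibitor, which also binds Ste12. It read 389, 291, 421 and 342 on CDC34tm replicates 1 to 4, against 329.6, 316, 267 and 279 on WT replicates 1 to 4. The strains overlapped, since CDC34tm replicate 2 lay below WT replicates 1 and 2. CDC34tm averaged 361 ± 56.9 and WT 298 ± 29.6 (SD, n = 4 each). The log2 fold change of 0.26 had a 95% interval of -0.02 to 0.53 and did not pass (limma adjusted p = 0.123). It did pass without CDC34tm replicate 2 (0.35, limma adjusted p = 0.0384) and after quantile normalization (0.36, limma adjusted p = 0.0257), where 15.7% and 21.7% of all tested probe sets were called higher. The interval of DIG1, -1.33 to -0.72, does not meet that of DIG2.

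TEC1 (YBR083W) encodes the transcription factor specific to filamentation, and its own promoter is a target of Ste12 and Tec1. Its signal was 1824, 1653, 1669 and 1836 on CDC34tm replicates 1 to 4, against 1264, 1637, 3061 and 1306 on WT replicates 1 to 4. The CDC34tm cultures were close together, and the WT cultures lay on both sides of them. WT replicate 3 was 2.18 times the mean of the other WT cultures, and the remaining WT cultures all lay below the lowest CDC34tm culture. CDC34tm averaged 1745 ± 98.1 and WT 1817 ± 846 (SD, n = 4 each), with a log2 fold change of 0.04 (95% interval -0.49 to 0.57, limma adjusted p = 0.913). What the comparison gives for TEC1 therefore depends on the WT cultures used. Without WT replicate 3 TEC1 was called higher in CDC34tm, with a log2 fold change of 0.32 (95% interval 0.10 to 0.54, limma adjusted p = 0.0303). Leaving out WT replicates 2 and 3 gave 0.44 (limma adjusted p = 0.000802). Leaving out WT replicates 1 and 4 gave -0.36, which was not called (limma adjusted p = 0.169). Called higher were 19.4% of all tested probe sets without WT replicate 3 and 25.5% without WT replicates 2 and 3.

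STE12 (YHR084W) encodes the transcription factor that the mating and filamentation branches share. It read 2399, 1974, 2182 and 2230.1 on CDC34tm replicates 1 to 4, against 2074, 2675, 3612 and 2058 on WT replicates 1 to 4. The highest signal was again that of WT replicate 3, at 1.59 times the mean of the other WT cultures, and the strains overlapped. The log2 fold change was -0.21 (95% interval -0.57 to 0.15, limma adjusted p = 0.338), and -0.04 without WT replicate 3. Of the alternatives run, STE12 was called in 1, lower with WT replicates 1 and 4 left out (-0.50, limma adjusted p = 0.00841), where 20.9% of all tested probe sets were called lower. Leaving out WT replicates 2 and 3 gave 0.08 (limma adjusted p = 0.405).

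KSS1 (YGR040W), the kinase of the pathway, varied little. It read 633, 716, 678 and 682 on CDC34tm replicates 1 to 4, against 744, 612, 796 and 669.5 on WT replicates 1 to 4. The WT range took in all CDC34tm signals, with a log2 fold change of -0.05 (95% interval -0.25 to 0.15, limma adjusted p = 0.68). Of the 8 genes KSS1 had the narrowest interval with all arrays. Its lower limit, -0.25 there, was -0.31 with WT replicate 2 left out.

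MSB2 (YGR014W), the mucin at the head of the pathway and itself a target of it, read 2581, 2067, 2316 and 2450 on CDC34tm replicates 1 to 4. It read 1852, 2586, 2649 and 1917 on WT replicates 1 to 4. The WT cultures fell into a low pair, replicates 1 and 4, and a high pair, replicates 2 and 3, and all CDC34tm cultures lay between the pairs. The log2 fold change was 0.08 (95% interval -0.21 to 0.36, limma adjusted p = 0.659). Leaving out WT replicates 2 and 3 gave 0.31, past the threshold (limma adjusted p = 0.0134), and leaving out WT replicates 1 and 4 gave -0.16 (limma adjusted p = 0.18).

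**Figure D2:**
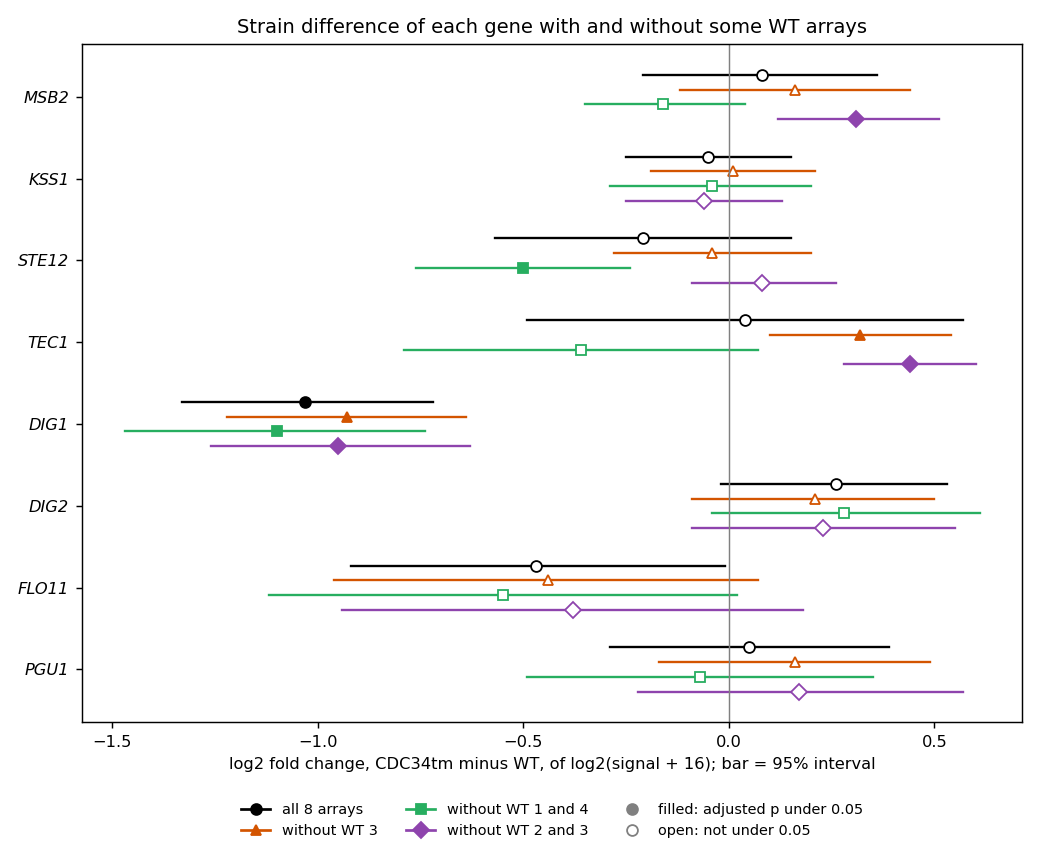
Log2 fold change (CDC34tm minus WT, horizontal axis) of each gene with its 95% interval, from all 8 arrays and from fits that leave out WT replicate 3, WT replicates 1 and 4, or WT replicates 2 and 3. Filled markers have a limma adjusted p under 0.05: DIG1 is filled and near -1 in all 4 fits, whereas TEC1 runs from -0.36 to 0.44.

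FLO11 (YIR019C) encodes the cell surface adhesin needed for invasion and filament formation. Its signal was 133, 60.7, 129 and 132 on CDC34tm replicates 1 to 4, against 148, 169, 166 and 146 on WT replicates 1 to 4. Every CDC34tm culture lay below every WT culture, and CDC34tm replicate 2 lay far below the other 3. CDC34tm averaged 114 ± 35.4 and WT 157 ± 11.9 (SD, n = 4 each), with a log2 fold change of -0.47 (95% interval -0.92 to -0.01). FLO11 did not pass the test over all probe sets (limma adjusted p = 0.0949). CDC34tm replicate 2 sets much of its size: without that array the log2 fold change was -0.23 (limma adjusted p = 0.089). That array was also the lowest CDC34tm array for 6 of the 8 pathway genes, against 40.1% of all tested probe sets. It was the highest for 1 of the 8, against 30.6%. Over all tested probe sets its median was -0.02 from the mean of the other CDC34tm arrays on the log2 scale, so it spread in both directions. The part of that spread in the FLO11 value was not tested.

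PGU1 (YJR153W) encodes a secreted endopolygalacturonase, which digests pectin and is a target of Ste12 and Tec1. It read 22.4, 25.1, 29.0 and 18.4 on CDC34tm replicates 1 to 4, against 16.3, 20.1, 31.6 and 22.0 on WT replicates 1 to 4. These signals were 1.23 to 2.33 times the background of the same array, and the strains overlapped. At this signal the log2 fold change of 0.05 (95% interval -0.29 to 0.39, limma adjusted p = 0.807) shows no detectable difference.

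Across the WT cultures, replicate 3 had the highest signal for 6 of the 8 pathway genes, where this array was the highest WT array for 27.8% of all tested probe sets. In the median pathway gene it lay 0.35 above the mean of the other WT arrays on the log2 scale, beside 0.02 over all tested probe sets. Exceptions were DIG2, for which it was the lowest WT array, and FLO11, for which WT replicate 2 was slightly higher. The same array was the highest WT array for 10 of 10 pheromone-induced genes, at a median of 1.62 above the others. AGA1, an agglutinin anchor gene, read 1774, 2278, 7778 and 2348 on WT replicates 1 to 4, and FUS1, a cell fusion gene, 655, 842, 2059 and 680.2. FUS3, the mating kinase gene, read 1229.7, 1432, 2548 and 1083 on the same arrays. All 4 MATα markers were also highest there, among them STE3, the receptor for a-factor, at 8818 against 6074 to 6195 on the other WT arrays. Of the 5 MATa markers, 2 were highest there. MFA1, an a-factor gene, read 263 on WT replicate 3, within its CDC34tm range of 186 to 302. AGA2, the other, read 58.7 there, above its CDC34tm range of 32.3 to 44.2. The part of this culture's pheromone-induced genes in the pathway genes' values was not tested.

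**Figure D3:**
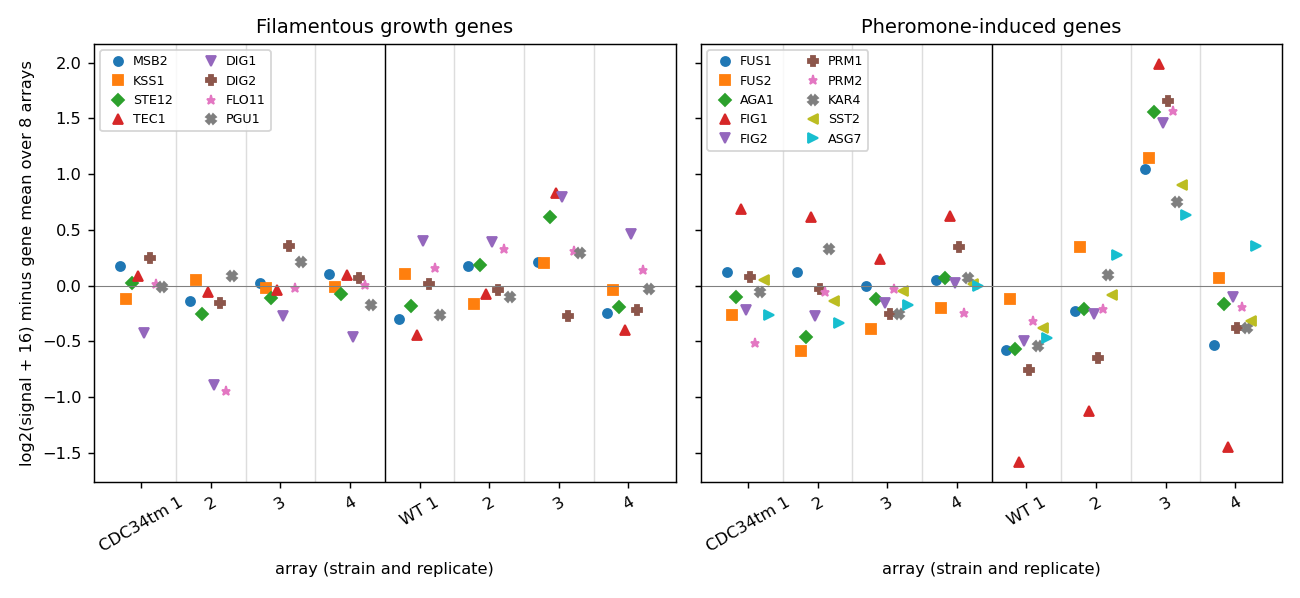
Log2(signal + 16) of each gene on each array minus the gene's mean over the 8 arrays, for the 8 filamentous growth genes (left) and the 10 pheromone-induced genes (right). On WT replicate 3 all 10 pheromone-induced genes are at their WT maximum, together with 6 of the 8 filamentous growth genes.

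The pattern of TEC1 over the 8 arrays was closest to that of SST2, with a root mean square difference of 0.061 between their centred log2 signals. SST2, which encodes a regulator that turns off the pheromone receptor's G protein, read 1892, 1658, 1775 and 1848 in CDC34tm and 1399.9, 1731, 3432 and 1469.9 in WT. The next closest were KAR5 (0.126), a nuclear fusion gene, and FAR1 (0.130), which encodes an inhibitor of G1 cyclin kinase. None of the 3 was called with all arrays, with log2 fold changes of -0.06, 0.01 and -0.03. Like TEC1, SST2 was called higher without WT replicates 2 and 3 (0.32, limma adjusted p = 0.00513). The patterns closest to FLO11 were those of SIZ1 (0.107), EAF1 (0.142) and DNL4 (0.149), which likewise had their lowest signal on CDC34tm replicate 2. SIZ1, a SUMO ligase gene, read 378, 247, 403 and 382 in CDC34tm and 460.0, 501, 491 and 458 in WT, and it was called lower (log2 fold change -0.44, limma adjusted p = 0.0305). For the dim PGU1 the closest were LAG2, CDH1 and HMRA2, at 0.098 to 0.105, all with log2 fold changes of 0.01 to 0.04. These likenesses are descriptions over the same 8 arrays.

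Of the 10 genes of the shared cascade between Msb2 and Kss1, SHO1 rose and 0 fell with all arrays, where 18.9% and 19.7% of all tested probe sets were called higher and lower. The median log2 fold change was -0.12. SHO1 encodes the membrane adaptor that works beside Msb2. It read 2842, 2886, 2531 and 2719 in CDC34tm, against 2191, 2247, 2198 and 2241 in WT, so that every CDC34tm culture was higher (log2 fold change 0.30, limma adjusted p = 0.00311). STE20, STE11 and STE7, the kinases above Kss1, were not called with all arrays, with log2 fold changes of -0.14, -0.12 and -0.19. These values depend on the WT cultures. With WT replicates 1 and 4 left out, 3 of the 10 genes were called lower, beside 20.9% of all tested probe sets: STE20 (-0.29), STE7 (-0.30) and HKR1 (-0.22), a mucin gene related to MSB2 (limma adjusted p = 0.00542, 0.0265 and 0.0253). STE20 and HKR1 also passed with WT replicate 4 alone left out (-0.22 and -0.19, limma adjusted p = 0.0438 and 0.0468). Of the 5 genes for the mating kinase, its scaffold and the phosphatases that act on these kinases, PTP2 fell. It encodes a tyrosine phosphatase and read 796, 701, 802 and 793 in CDC34tm, against 1030.4, 1173, 1073 and 1192 in WT (log2 fold change -0.52, limma adjusted p = 0.0008). FUS3, at -0.32, did not pass with all arrays (limma adjusted p = 0.281) and was at -0.07 without WT replicate 3. With WT replicates 1 and 4 left out FUS3 was called lower (-0.68, limma adjusted p = 0.0191), as was MSG5, a phosphatase gene (-0.25, limma adjusted p = 0.0115), so that 3 of the 5 genes were called lower there.

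Other genes reported as targets of Tec1 and Ste12, or tied to Msb2, moved in both directions. Of 4 listed, 3 were measured, and of these CLN1 and SVS1 rose and YPS1 fell. Over all tested probe sets 18.9% were called higher and 19.7% lower. CLN1, a G1 cyclin gene, read 1771, 1637, 1656 and 1569 in CDC34tm, against 1248, 1100.2, 849.7 and 834 in WT, with no overlap (log2 fold change 0.73, limma adjusted p = 0.00184). SVS1, a cell wall protein gene, rose by 0.44 (limma adjusted p = 0.0165); its difference was 0.24, not past the threshold, with WT replicates 2 and 3 left out (limma adjusted p = 0.0544). YPS1, an aspartyl protease gene whose product cleaves Msb2, read 1544, 1598, 1841 and 1733 in CDC34tm, against 2830.0, 2065, 2630.2 and 3367 in WT. It fell by 0.67 on the log2 scale (limma adjusted p = 0.00343). CLN1 and SVS1 were not raised on WT replicate 3, where SVS1 had its lowest signal, so they differed from TEC1 in how they varied among the WT cultures. The fourth gene was not analysed here.

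The 10 pheromone-induced genes, which Ste12 drives without Tec1, had 1 called lower and 0 higher with all arrays, beside 19.7% and 18.9% of all tested probe sets, with a median of -0.19. FUS2, a cell fusion gene, was the one that fell (-0.72, limma adjusted p = 0.0366). It lost its call without any single CDC34tm array or WT replicate 2, with limma adjusted p-values of 0.0576 to 0.0978, and after quantile normalization (-0.60, limma adjusted p = 0.0789). It was -0.46 without WT replicate 3 (limma adjusted p = 0.0263) and -0.33 with WT replicates 2 and 3 left out (limma adjusted p = 0.0517). Without WT replicate 3, FUS1 (0.52), FIG1 (1.92) and PRM1 (0.63), a membrane fusion gene, were called higher and FUS2 lower, beside 19.4% and 19.1% of all tested probe sets, and the median was 0.19. Without WT replicates 2 and 3, 5 were called higher and 0 lower, beside 25.5% and 22.5%, with a median of 0.26. The 5 were FUS1, FIG1 and PRM1 with KAR4 (0.48), a gene of karyogamy, and SST2 (0.32). Without WT replicates 1 and 4, 0 were called higher and 2 lower, with a median of -0.56, where 20.9% of all tested probe sets were called lower. The lower genes were FUS2 (-1.11) and ASG7 (-0.65). ASG7 was dim, at 25.2 to 35.9 in CDC34tm and 21.5 to 64.6 in WT. FIG1 read 197, 186, 141 and 188 in CDC34tm, above WT replicates 1, 2 and 4 and below WT replicate 3. TEC1 shared this layout, with CDC34tm cultures above 3 WT cultures and below WT replicate 3.

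The genes of the cAMP and protein kinase A branch, the second route to FLO11, moved in both directions: of 10 measured, 1 rose, 3 fell and 6 were not called, with a median of -0.15. These 4 of 10 are near the 38.6% called over all tested probe sets. GPA2, the G protein alpha subunit gene of the glucose receptor, fell by 0.55, RAS2, a small GTPase gene, by 0.21, and SFL1, a repressor of FLO11, by 0.48 on the log2 scale (limma adjusted p = 0.00457, 0.0105 and 0.0202). SFL1 read 843, 602.5, 927 and 826 in CDC34tm, against 1005, 1193, 1287 and 986 in WT, and was lowest on the same array as FLO11. With WT replicates 2 and 3 left out SFL1 was at -0.33 and not called (limma adjusted p = 0.0845). GPR1, the receptor gene, rose by 0.25 (limma adjusted p = 0.0309). That call did not survive leaving out CDC34tm replicate 1, 2 or 4, or else WT replicate 1 or 4 (limma adjusted p from 0.0577 to 0.0909), and the value was 0.16 with both of those WT cultures left out. It was also lost with the replicate number as a block (limma adjusted p = 0.0614). TPK2, which encodes a catalytic subunit of protein kinase A, read 828.5, 714, 810.1 and 739.8 in CDC34tm, against 1491, 796, 889 and 1311 in WT, and was not called with all arrays (-0.48, limma adjusted p = 0.0583). It was called lower without WT replicate 2 (-0.63, limma adjusted p = 0.0134), without WT replicate 3 (-0.58, limma adjusted p = 0.0355), without both (-0.84, limma adjusted p = 5.55e-05) and with the replicate number as a block (-0.48, limma adjusted p = 0.0397). Without WT replicates 2 and 3 this branch had 2 genes called higher and 4 lower, beside 25.5% and 22.5% of all tested probe sets. Without WT replicates 1 and 4 it had 4 lower, beside 20.9%. FLO8, the activator of FLO11 in this branch, was at 0.07 and did not pass (limma adjusted p = 0.377).

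Of 12 other regulators of FLO11, 5 fell, 2 rose and 5 were not called, a median of -0.25, where 19.7% and 18.9% of all tested probe sets were called lower and higher. SNF1, the kinase of glucose derepression, read 1572, 1348, 1668 and 1556 in CDC34tm, against 2363, 2339.6, 2369 and 2245 in WT (log2 fold change -0.60, limma adjusted p = 0.000275). NRG2, a repressor that Snf1 counteracts, fell by 0.51 (limma adjusted p = 0.000564). RIM101, which encodes a repressor that acts in the pH response and in invasive growth, fell by 0.34 (limma adjusted p = 0.0048). ASH1, a daughter cell factor that acts in filamentation, rose by 0.46 (limma adjusted p = 0.0014). SNF1 and NRG2 were separated without overlap and moved little with the WT cultures, at -0.62 to -0.58 and -0.52 to -0.50 in the fits without a pair of them. The remaining 3 called genes are named after their values were seen. PHD1, an activator of pseudohyphal growth, read 834, 593, 854 and 772 in CDC34tm, against 2099, 985, 1514 and 2007 in WT (-1.05, limma adjusted p = 0.00511). MGA1, a heat shock factor-like gene of pseudohyphal growth, read 28.1, 23.0, 36.2 and 33.4 in CDC34tm, against 338, 86.7, 92.0 and 453 in WT (-2.17, limma adjusted p = 0.00517). Both were highest on WT replicates 1 and 4, the cultures with high HSP42. Their log2 fold changes were -0.68 and -1.20 without those cultures and -1.42 and -3.15 without the other WT pair, and both were past the threshold in each of these fits. HMS2, a further heat shock factor-like gene, rose by 0.52 (limma adjusted p = 0.025), a call that did not hold with CDC34tm replicate 1, 3 or 4 left out, or with WT replicate 2 left out (limma adjusted p from 0.051 to 0.0695). With WT replicates 2 and 3 left out it was 0.47 (limma adjusted p = 0.0606).

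**Figure D4:**
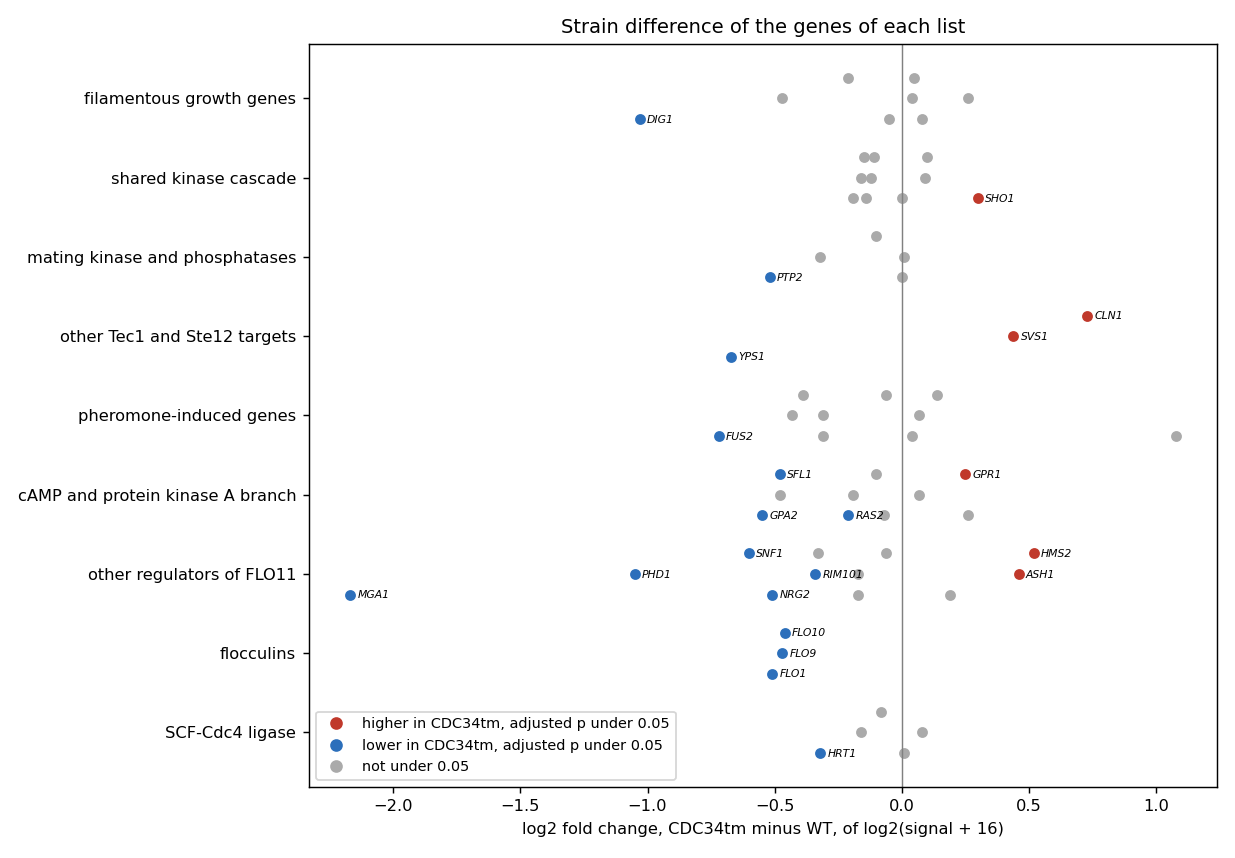
Log2 fold change (CDC34tm minus WT, horizontal axis) of every tested gene of the pathway and of each related list, with 1 point per gene and names for genes with a limma adjusted p under 0.05. DIG1 at -1.03 is the named point among the 8 pathway genes, and the 3 flocculin genes lie together at -0.51 to -0.46.

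The flocculin genes, relatives of FLO11 that encode cell adhesion proteins, were lower in CDC34tm: 3 of 3 measured fell, where 19.7% of all tested probe sets were called lower. FLO1 read 133, 119, 138 and 142 in CDC34tm, against 203.5, 172, 178 and 238 in WT (-0.51, limma adjusted p = 0.0069). FLO9 and FLO10 fell by 0.47 and 0.46 (limma adjusted p = 0.0059 and 0.0111). With all arrays these were close to the -0.47 of FLO11, which was not called. Without CDC34tm replicate 2 FLO11 was at -0.23, nearer to no difference than its relatives. In that fit FLO1, FLO9 and FLO10 were at -0.46, -0.42 and -0.41 and stayed called (limma adjusted p = 0.021, 0.0185 and 0.0323). FLO10 was -0.30 and not called without WT replicates 1 and 4 (limma adjusted p = 0.0682). FLO1 and FLO9 are near-identical copies over much of their length, and the probe set named FLO9 may be shared with other copies, so these values are uncertain as those of single genes.

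Of the 5 genes for the ligase that targets Tec1 protein, CDC34, CDC53, SKP1, HRT1 and CDC4, HRT1, the RING subunit gene, fell by 0.32 (limma adjusted p = 0.003) and 0 rose, beside 19.7% and 18.9% of all tested probe sets called lower and higher. CDC53, the cullin gene, was at -0.16 and not called (limma adjusted p = 0.154), and was called lower without WT replicates 2 and 3 (-0.30, limma adjusted p = 0.00331). CDC4, whose F-box product recognises Tec1, was at -0.08 and did not pass (limma adjusted p = 0.393).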

How the data were processed

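Total RNA of 8 cultures was measured on 1 array each, 4 per strain. The authors deposited linear array intensity values, which the submitters' processing notes name as MAS5. Its version and scaling target are not given in the sources used. Judged by the values, all arrays had been brought to the same trimmed mean (about 1000.4 with 2% of probe sets removed at either end). That scaling was kept, which hides any change in the total mRNA of a cell. Of 10928 probe sets, the platform table names 5498 as 1 S. cerevisiae gene, with 12 symbols updated through RefSeq's R64 gene table, 1746 as 1 S. pombe gene and 1 as several genes. A further 213 were controls and 3470 had no name. Genome coordinates and sequences were not used here.

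Probe sets were kept for testing if at least 4 of the 8 arrays were above that array's background, which kept 5437 and left out 61. Testing used limma 3.58.1 under R 4.3.3 on log2(signal + 16), two-sided: a linear model per probe set and moderated variances with a trend. The pseudocount of 16 understates the change of dim genes. Each strain's cultures were separate, per the labels, so p-values measure the spread between cultures, and the number of arrays limits the precision. The steps were tested on simulated data that gave both strains the same spread. That test does not cover genes that varied more among the WT cultures.

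Named genes were the 8 pathway genes, CDC34, up to 4 called members of each related list, and the 3 tested genes closest in pattern to TEC1, FLO11 and PGU1. HSP42, FUS1, FUS3, AGA1, FIG1, FIG2, PRM1, STE3 and other examples were added after their values were seen. The members and lists were chosen with earlier results of these data known. Alternatives were pseudocounts of 1 and 64, quantile normalization, centring on the array median, no filter and a stricter filter, variances without the trend, a block for the replicate number, and fits that leave out each array, WT replicates 1 and 4, or WT replicates 2 and 3.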

Additional observations from a re-analysis of the deposited data

Results flagged for a closer look

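Of the genes named in the text 45 were checked, which did not take in PRM1, SST2 and some others. Within a strain of 4 arrays, 10 signals of the checked genes lay apart from the other 3. The gap, as a share of the strain's whole range, exceeded Dixon's 95% critical value. The check covered 90 strain groups, where chance flags about 1 in 20. All 10 came from 2 arrays. On WT replicate 3, high signals were 3752 for DIG1, 2059 for FUS1, 7778 for AGA1, 509 for FIG1, 3584 for FIG2 (an adhesin gene induced by pheromone) and 8818 for STE3. Over all tested probe sets this array was set apart as high for 0.828%. It was set apart as high for 7 of the 10 pheromone-induced genes, not all of which were checked above. On CDC34tm replicate 2, low signals were 60.7 for FLO11, 701 for PTP2, 4396 for SVS1 and 1355 for RIM101. Over all tested probe sets this array was set apart as low for 2.12% and as high for 1.88%. The DIG1 gap was only just past the limit, at 0.831. Several of these genes were named because of their values on WT replicate 3, so their number is no measure of how often it happens.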

How the results depend on the processing

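DIG1 kept its direction and stayed past the threshold in all alternatives run. All tested probe sets gave 1028 higher and 1072 lower calls. Single arrays left out gave 756 to 1055 higher and 833 to 1064 lower, and centring each array on its median gave 1327 higher and 889 lower. Among the 8 pathway genes, the count called higher, 0 with all arrays, was 1 after quantile normalization (DIG2, 0.36), 2 without WT replicates 2 and 3 (TEC1, 0.44, and MSB2, 0.31), and 0 to 1 with single arrays left out. The count called lower was 2 without WT replicates 1 and 4 (DIG1, and STE12 at -0.50). Without WT replicates 2 and 3, 10 genes of the other pathway lists were called higher. Higher calls went from 0 to 5 of 10 pheromone-induced genes and from 1 to 2 of 10 genes of the cAMP branch. They went from 2 to 1 of 3 other Tec1 and Ste12 targets and from 2 to 1 of 12 other regulators of FLO11. In the remaining lists they did not change. Higher calls over all tested probe sets also rose in that fit, from 1028 (18.9%) to 1387 (25.5%). With single arrays left out, log2 fold changes ran from -0.10 to 0.32 for TEC1, -0.12 to 0.01 for KSS1, 0.18 to 0.35 for DIG2, -0.01 to 0.16 for MSB2, -0.03 to 0.16 for PGU1, -0.03 to 0.52 for FUS1, -0.55 to 0.16 for AGA1 and -0.53 to 0.13 for FIG2. Genes whose sign turned without WT replicates 1 and 4 included TEC1 (-0.36), MSB2 (-0.16), PGU1 (-0.07) and FUS1 (-0.34). Those whose sign turned without WT replicates 2 and 3 included STE12 (0.08), FUS3 (0.03), AGA1 (0.21) and FIG2 (0.14), none of them called. They also included SST2 (0.32), which was called higher. The cause was not tested.

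Deviations of same-numbered samples from their strain means correlated at 0.038, 0.227, -0.075 and 0.063. These 4 values are too few to settle whether the replicate numbers pair the samples. With the replicate block, 1993 probe sets were called in place of 2100, and 1889 were called in both; DIG1 stayed called (-1.03), and the pathway genes kept 0 higher and 1 lower, while GPR1 lost its call (limma adjusted p = 0.0614) and TPK2 gained one (-0.48, limma adjusted p = 0.0397). Of the 4 CDC34tm samples, 2 correlated best with the WT sample of their own number. Signal close to background limits PGU1.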
